A study of Mus musculus with 6 samples.

Results

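The monocyte-attracting CC chemokine genes and their receptors were examined in single-cell transcriptomes of mouse pancreatic tumours. The set held 9 of the 32285 genes listed in the count files. They were the ligands Ccl2, Ccl7, Ccl8, Ccl12, Ccl3, Ccl4 and Ccl5 and the receptors Ccr2 and Ccr1. The genes were chosen by name, with earlier results of these data known. All 9 were detected in every library. The tumours were grown in the pancreas of young adult C57BL/6 mice from KPC cells, which are mouse pancreatic cancer cells from a genetically engineered model. Before injection the cells had received a construct to overexpress mouse Mlkl (labelled OE-MLKL) or its empty control (labelled OE-Vector), and the hosts had an intact immune system. The labels name 6 tumours, 3 in each group. The count matrices used were those of OE-Vector replicate 1 and of all 3 OE-MLKL tumours. Replicates 2 and 3 of OE-Vector were not analysed here.

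CC chemokines are small secreted proteins that bind G protein-coupled receptors on leukocytes and direct their migration along a gradient. Ccr2 is the receptor by which inflammatory monocytes leave the bone marrow and enter tumours, and Ccl2, Ccl7 and Ccl12 are its ligands in the mouse. Ccl8 is a related ligand of the same gene cluster, which in the mouse acts mainly through Ccr8. Ccl3, Ccl4 and Ccl5 are the inflammatory chemokines once named MIP-1α, MIP-1β and RANTES. Ccr1 binds Ccl3, Ccl5 and Ccl7.

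The 4 libraries held between 150591289 and 169978362 UMIs (tags by which copies of 1 captured RNA molecule are counted as 1). Between 15382 and 23063 barcodes per library passed as cells, with median depths from 1983 to 5287 UMIs. Cells were assigned to classes by markers that stood above the free RNA of their library, that is, the RNA in barcodes with at most 100 UMIs. No CC chemokine or receptor gene served as a marker. Each class checked had at least 1 of its own markers among its 10 leading genes. The gate itself favours that outcome, so it is no independent check of the classes. The macrophage-like class held 1989, 2740, 2715 and 3043 cells, the first in OE-Vector 1 and the others in the OE-MLKL libraries by replicate number, and every series of 4 values below keeps that order. The neutrophil-like class held 6231, 5104, 8207 and 6508 cells and the cancer-like class 2854, 7511, 7895 and 3837 cells. Of the 73935 distinct cell barcodes, 605 occurred in more than 1 library. The targeted gene did not separate the groups: Mlkl in cancer-like cells was at 16.6 CPM (counts per 1 M UMIs of the class) in OE-Vector 1 and at 8.59, 12.9 and 19.7 CPM in OE-MLKL 1, 2 and 3. Counts of this kind are read near 1 end of the transcript, and whether the construct keeps that part of Mlkl is not given in the sources used here, so these values need not report on it. Groups are therefore named below as the libraries are labelled. Since OE-Vector is represented by 1 tumour, group and single tumour cannot be told apart.

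**Figure D1:**
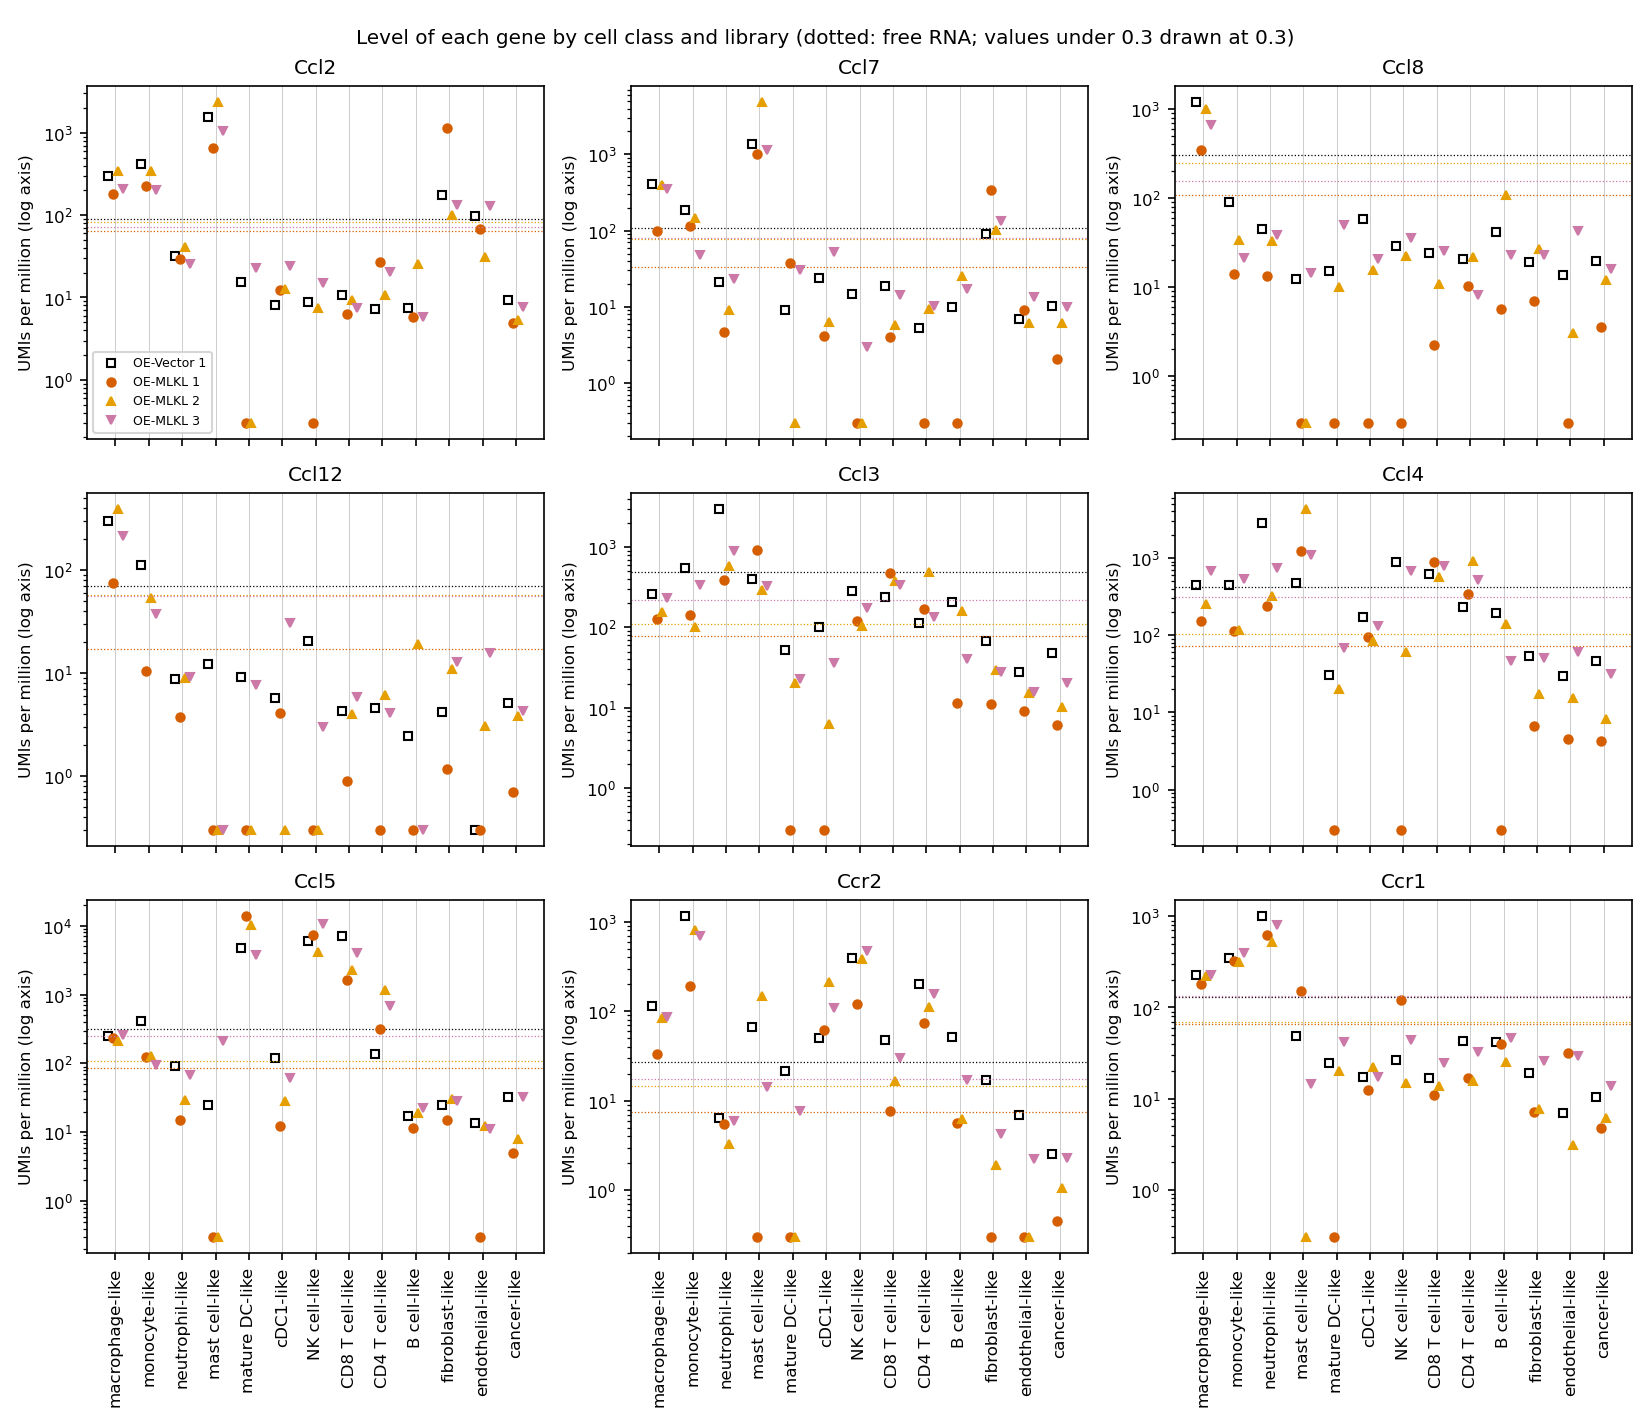
Level of each of the 9 genes in 13 cell classes (horizontal axis), in CPM on a log axis, with 1 point per library. Dotted lines give the level in free RNA in the same colours. Ccl8 and Ccl12 stand above free RNA in macrophage-like cells of every library, and Ccr1 is highest in neutrophil-like cells.

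The first question was which cells made each ligand and carried each receptor. Macrophage-like cells held most UMIs of Ccl8 and Ccl12 in every library, and most of those of Ccl2 and Ccl7 except of Ccl2 in OE-MLKL 1. Neutrophil-like cells stood furthest above the other classes of 6 fitted for Ccl3, Ccl4 and Ccr1, and CD8 T cell-like cells for Ccl5. The few monocyte-like cells had a higher mean level of Ccr2 than any other class with at least 20 cells per library. For the test, 6 classes with at least 50 cells in every library were each compared with the mean of the other 5 by edgeR's quasi-likelihood test with library as a block and Benjamini-Hochberg adjustment over 13639 genes. T cell-like cells with neither or both of the CD4 and CD8 markers (157, 88, 129 and 97 cells) also passed 50 cells but could not be assigned to either class, and were left out of this fit. Of the 9 genes, 8 were called higher in macrophage-like cells, where 28.8% of all genes tested were. In neutrophil-like cells 3 of 9 were called higher (34% of all genes), and in CD8 T cell-like cells 4 of 9 (28.2%). CD4 T cell-like cells had 3 of 9 (18.4%) and fibroblast-like cells 2 of 9 (28.6%). In cancer-like cells 0 of 9 were called higher, where 34.1% of all genes were, and all 9 were called lower, where 31.8% of all genes were. The count in macrophage-like cells was thus above the share of all genes, and that in neutrophil-like cells was close to it. A fit with the unassigned T cell-like cells as a 7th class was added after the values were seen. There 2 of 9 genes, Ccl5 and Ccr2, were called higher in those cells, where 12% of 13050 genes were. In that fit the count in macrophage-like cells fell to 6 of 9 (29.3% of all genes), without Ccl4 and Ccl5, and that in CD8 T cell-like cells to 3 of 9 (25.3%), without Ccr2. Neutrophil-like cells gained Ccl8, for 4 of 9 (33.1%), and the counts of the 3 other classes did not change.

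The 4 ligand genes Ccl2, Ccl7, Ccl12 and Ccl8 lie in 1 cluster on chromosome 11 of the GRCm38 genome, all on the plus strand. Ccl2 spans chr11:82035571-82037453 and Ccl7 chr11:82045712-82047525. Ccl12 spans chr11:82101845-82103400 and Ccl8 chr11:82115185-82116799, with 11784 bases between them. The annotated gene Gm17268 overlaps Ccl2 on the minus strand, and the other 8 genes overlap no annotated gene.

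Ccl8 had the most UMIs of the 4 in macrophage-like cells of each library, at 1193, 349, 1008 and 660 CPM. Its level in the free RNA of the same libraries was 301, 108, 249 and 154 CPM. Macrophage-like cells held 84.5%, 85.3%, 84.7% and 83.0% of its UMIs. Its level was 50.4-fold above the mean of the other classes (log2 5.655, SE 0.14, adjusted p = 1.86e-18, edgeR). The next of the 11 classes with at least 20 cells in each library was B cell-like cells, with a mean of 44.6 ± 44.6 CPM (SD, n = 4). After every cell was thinned to 500 UMIs, 27.8%, 11.8%, 24.8% and 20.7% of macrophage-like cells held a UMI of Ccl8, against at most 1.02% of CD8 T cell-like cells.

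Ccl12, the mouse relative of CCL2 also known as MCP-5, followed the same pattern at a lower level. It was at 300, 74.5, 387 and 213 CPM in macrophage-like cells, which held 83.7% to 86.4% of its UMIs. Monocyte-like cells came next, at 110, 10.5, 53.7 and 37.4 CPM, below macrophage-like cells in 4 of 4 libraries. Ccl12 in free RNA was at 69.25, 17.05, 56.95 and 55.73 CPM, above monocyte-like cells in every OE-MLKL library. The fold over the other classes was 54.2 (log2 5.76, SE 0.14, adjusted p = 1.86e-18, edgeR). Over the 24 sums of 6 classes in 4 libraries, Ccl8 was the gene most like Ccl12 and Ccl12 the gene most like Ccl8 (Pearson r = 0.968 of log2 CPM, a description of sums that share libraries and classes). After Ccl8, the genes most like Ccl12 were Tifab and Msr1, and after Ccl12 those most like Ccl8 were Aif1 and Mrc1, with r of at least 0.962.

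Because these neighbouring genes were each the one most like the other, the 250 bases before the start of each are shown, from RefSeq on GRCm38.p6. The Ccl12 window is chr11:82101595-82101844 and the Ccl8 window chr11:82114935-82115184, both on the plus strand. Capitals mark TATAAA, the core promoter motif, searched on both strands. It was found in 12.4% of the 32851 windows of this length.
Ccl12: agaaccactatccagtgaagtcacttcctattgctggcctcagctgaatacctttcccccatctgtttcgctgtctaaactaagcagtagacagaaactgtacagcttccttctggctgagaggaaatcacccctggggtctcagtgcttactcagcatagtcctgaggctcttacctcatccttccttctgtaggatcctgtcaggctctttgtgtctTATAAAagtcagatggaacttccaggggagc
Ccl8: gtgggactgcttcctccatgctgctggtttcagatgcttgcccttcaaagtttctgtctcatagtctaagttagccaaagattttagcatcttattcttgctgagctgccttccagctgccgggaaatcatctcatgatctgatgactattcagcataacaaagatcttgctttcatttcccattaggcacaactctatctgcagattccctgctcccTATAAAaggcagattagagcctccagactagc
In both windows the motif begins close to the start of the gene, 31 bases before that of Ccl12 and 32 before that of Ccl8. The windows were identical at 161 of 250 bases in a global alignment, while the 10 pairs among the 5 members with a RefSeq window ran from 54.8% to 64.4%. Neither TGANTCA, the motif of AP-1, nor TTNNGNAAT, the motif of C/EBP factors, was found in these 2 windows, and they occurred in 6.75% and 10.2% of all windows. The windows of Ccl3 and Ccr2 each held 1 match to TTNNGNAAT, and that of Ccr1 held none of the 3 motifs.

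Ccl2, the main ligand of Ccr2, was spread over more cell types than Ccl8 and Ccl12. It was at 296, 181, 342.5 and 206 CPM in macrophage-like cells and at 417, 223, 342.5 and 203 CPM in monocyte-like cells. Monocyte-like cells were the higher class in OE-Vector 1 and OE-MLKL 1, and elsewhere the levels nearly coincided. The fibroblast-like class also took cells gated by mesothelial markers, and their share in each library was not examined. Fibroblast-like cells were at 178, 1134, 100 and 134 CPM, so that their mean of 386 ± 499 CPM (SD, n = 4) was set by OE-MLKL 1. In that library fibroblast-like cells held 41.8% of all Ccl2 UMIs and macrophage-like cells 37.65%, whereas in the other 3 libraries macrophage-like cells held 65.5% to 73.9%. Both classes were called higher than the others, at 11.8-fold in macrophage-like cells (adjusted p = 1.14e-08, edgeR) and 13.2-fold in fibroblast-like cells (adjusted p = 4.09e-08). The genes most like Ccl2 were Cd302, Clmp and Prxl2b (r from 0.916 to 0.946).

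Ccl7, another ligand of Ccr2 that also binds Ccr1, lay at 412, 98.3, 396 and 347 CPM in macrophage-like cells. Its level in OE-MLKL 1 was the lowest of the 4 libraries. Fibroblast-like cells were at 90.6, 337, 103 and 133 CPM, with OE-MLKL 1 the highest, and in OE-MLKL 1 they exceeded the macrophage-like cells. Macrophage-like cells were 19.9-fold (adjusted p = 6.14e-10, edgeR) and fibroblast-like cells 10.9-fold (adjusted p = 3.92e-07) above the mean of the other classes. Itga9, Acvrl1 and Rnase4 were most like it (r from 0.939 to 0.946).

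Ccl7 was found more often in macrophage-like cells with Ccl2 than in those without it. Among macrophage-like cells with a UMI of Ccl2, thinned to 1000 UMIs, 54.3%, 21.3%, 47.1% and 43.2% also held Ccl7, against 19.8%, 4.50%, 20.4% and 17.5% of those without. Cells with Ccl2 held Ccr2 less often than cells without it in 4 of 4 libraries, at 7.24%, 1.49%, 4.65% and 4.62% against 9.14%, 2.64%, 6.55% and 6.68%. These shares were not tested.

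Mast cell-like cells, which were few, exceeded macrophage-like cells in both genes in every library. With 46, 9, 3 and 20 cells they held Ccl2 at 1539, 662, 2360 and 1046 CPM and Ccl7 at 1355, 1018, 4867 and 1132 CPM. The counts behind the Ccl2 values were 251, 13, 16 and 73 UMIs. In the deepest of them, OE-Vector 1, the exact 95% Poisson interval for Ccl2 was 1354 to 1741 CPM, above the 288 to 304 CPM of the macrophage-like cells of that tumour. Such intervals cover counting error only. The leading genes of the class were Mcpt2, Cma1 and Mcpt1, which encode mast cell proteases, and the class held at most 2.85% of the Ccl2 UMIs of a library. Its gate used markers of mast cells and basophils. Its Ccl4 was at 478 CPM in OE-Vector 1 and from 1103 to 4277 CPM in the OE-MLKL libraries, from 208 UMIs in all. Neutrophil-like and CD8 T cell-like cells reached at most 748 and 882 CPM of Ccl4 in the OE-MLKL libraries.

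Ccl3 and Ccl4 lie 13228 bases apart on chromosome 11, at chr11:83647844-83649355 on the minus strand and chr11:83662584-83664683 on the plus strand. Neutrophil-like cells were at 2959, 388, 575 and 883 CPM for Ccl3 and at 2814, 239, 326 and 748 CPM for Ccl4. Both were highest in OE-Vector 1, and the levels in neutrophil-like cells were 4.04 to 6.06 times those in free RNA for Ccl3 and 2.41 to 6.75 times for Ccl4. Against the other classes the folds were 13.1 for Ccl3 (adjusted p = 5.03e-09, edgeR) and 6.72 for Ccl4 (adjusted p = 4.12e-06). Neutrophil-like cells held 48.0%, 29.9%, 38.6% and 46.7% of the Ccl3 UMIs.

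T cell-like cells also held Ccl3 and Ccl4. CD8 T cell-like cells were at 242, 479, 379 and 335 CPM for Ccl3 and at 628, 882, 561.5 and 796 CPM for Ccl4. They were called above the other classes for both, at 3.40-fold for Ccl3 (adjusted p = 6.99e-04, edgeR) and 5.68-fold for Ccl4 (adjusted p = 3.70e-05). CD4 T cell-like cells were called above for Ccl4, at 3.26-fold (adjusted p = 6.98e-03), and not for Ccl3. Against free RNA, CD8 T cell-like cells were at 0.495, 6.155, 3.40 and 1.53 times its level for Ccl3 and at 1.51, 12.04, 5.39 and 2.57 times for Ccl4. CD4 T cell-like cells were at 0.232, 2.19, 4.42 and 0.6165 times for Ccl3 and at 0.551, 4.60, 8.90 and 1.65 times for Ccl4. In OE-Vector 1, Ccl3 in both classes and Ccl4 in CD4 T cell-like cells thus lay below free RNA. In Ccl4, neutrophil-like cells were the higher of both classes in OE-Vector 1 and CD8 T cell-like cells in the 3 OE-MLKL libraries.

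Ccl4 was found more often in neutrophil-like and CD8 T cell-like cells with Ccl3 than in those without it, and these shares were not tested. In neutrophil-like cells thinned to 1000 UMIs, 58.6%, 23.9%, 33.8% and 41.95% of those with Ccl3 also held Ccl4, against 13.7%, 6.54%, 6.49% and 14.3% of those without Ccl3. In CD8 T cell-like cells the shares were 55.1%, 62.0%, 52.9% and 53.85% against 24.4%, 14.8%, 11.7% and 28.8%. Ccl4 was the gene most like Ccl3 over the 24 sums (r = 0.951). Those most like Ccl4 were Lcp2, Lcp1 and Ptprc, all general leukocyte genes, with r of at least 0.955.

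Macrophage-like cells carried both genes at levels closer to free RNA than neutrophil-like cells did, at 0.529 to 1.63 times that level for Ccl3 and 1.08 to 2.46 times for Ccl4. Ccl3 was at 258, 127, 154 and 235 CPM there and was not called higher than in the other classes (log2 0.57, SE 0.40, adjusted p = 0.228, edgeR). Ccl4 was at 449, 151, 256 and 679 CPM and was called higher by a log2 of 1.07 (SE 0.42, adjusted p = 0.0365), a call lost with unassigned T cell-like cells as a 7th class (log2 0.85, SE 0.45, adjusted p = 0.113). As a large class they held 15.35%, 30.3%, 36.9% and 45.9% of the Ccl4 UMIs, more than the neutrophil-like cells (44.0%, 17.9%, 23.3% and 24.7%) in the 3 OE-MLKL libraries. Cells that met no gate held 30.2% of the Ccl3 UMIs and 24.3% of the Ccl4 UMIs in OE-Vector 1, at 2490 and 2078 CPM, and less in the OE-MLKL libraries (10.5% to 18.9% and 7.51% to 11.1%). Their median depth was 832 to 1185 UMIs, and their cell type was not established.

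Ccl5 lies at chr11:83525778-83530518 on the minus strand and encodes a chemokine made by cytotoxic lymphocytes. CD8 T cell-like cells were at 7043, 1613, 2232 and 4061 CPM, or 41.0-fold above the mean of the other classes (log2 5.36, SE 0.33, adjusted p = 9.12e-12, edgeR). They held 52.5%, 33.5%, 25.5% and 34.6% of its UMIs. After thinning to 500 UMIs, 60.4%, 48.1%, 46.4% and 55.8% of these cells held a UMI of Ccl5, against 0.588% to 2.60% of neutrophil-like cells.

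The T cell-like cells with neither or both of the CD4 and CD8 markers were at 3383, 2320, 2534 and 7311 CPM, above CD8 T cell-like cells in the 3 OE-MLKL libraries. With them as a 7th class, their Ccl5 was 22.7-fold above the mean of the other classes (adjusted p = 4.43e-12, edgeR) and that of CD8 T cell-like cells 22.0-fold (adjusted p = 2.02e-12). The smaller classes of NK cell-like and mature DC-like cells reached levels as high. NK cell-like cells (79, 9, 52 and 115 cells) were at 6061, 7280, 4121 and 10460 CPM, and mature DC-like cells (47, 8, 23 and 33 cells) at 4664, 13590, 10080 and 3771 CPM. Both exceeded CD8 T cell-like cells in OE-MLKL 1 and 2. The genes most like Ccl5 over the 6 larger classes were Padi2, Gpr18 and Fam78a (r from 0.910 to 0.927). CD4 T cell-like cells were at 138, 316.5, 1176 and 679 CPM, and macrophage-like cells from 215 to 259 CPM.

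**Figure D2:**
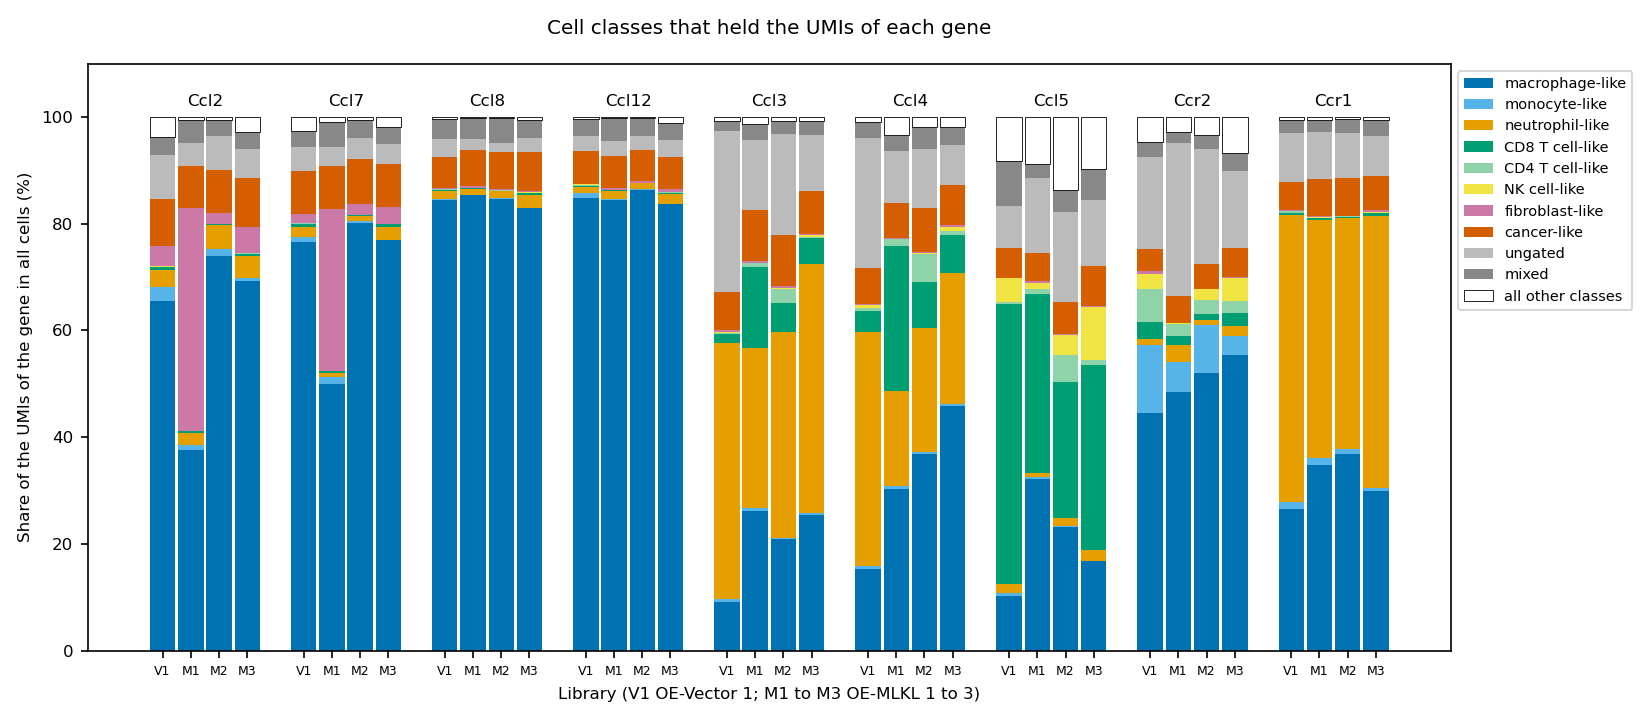
Share of the UMIs of each gene, in percent of its UMIs in all cells of a library, that each cell class held (stacked colours, 1 bar per library). Macrophage-like cells held over 80% of Ccl8 and Ccl12 in every library, and fibroblast-like cells 41.8% of Ccl2 and 30.3% of Ccl7 in OE-MLKL 1.

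The 2 receptor genes lie together on chromosome 9, Ccr1 at chr9:123962124-123968692 on the minus strand and Ccr2 at chr9:124101950-124113557 on the plus strand. Their cells differed. Ccr2 was highest in monocyte-like cells, at 1145, 192, 806 and 694 CPM from 643, 55, 240 and 130 UMIs, and was above CD4 T cell-like cells in 4 of 4 libraries. NK cell-like cells followed at 394.5, 119, 388 and 468 CPM and CD4 T cell-like cells at 202, 74.9, 111 and 155 CPM. Macrophage-like cells were lower, at 115, 33.0, 84.8 and 86.6 CPM, but as the larger class they held 44.5% to 55.4% of the Ccr2 UMIs. In OE-MLKL 1 every one of these classes had its lowest Ccr2 level. That of NK cell-like cells there rested on very few counts, from 9 cells with 16758 UMIs of all genes together.

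Among the classes large enough for the fit, CD4 T cell-like cells were 12.6-fold (adjusted p = 2.55e-11, edgeR) and macrophage-like cells 8.28-fold (adjusted p = 2.87e-12) above the mean of the others in Ccr2. CD8 T cell-like cells were called higher by 1.69-fold (adjusted p = 0.0124), with levels of 47.3, 7.70, 16.7 and 30.0 CPM, but not with the unassigned T cell-like cells as a 7th class (1.29-fold, adjusted p = 0.214). Neutrophil-like cells were called lower. After thinning, 37.0%, 6.25%, 33.8% and 25.0% of monocyte-like cells held a UMI of Ccr2, against 0.0975% to 0.289% of neutrophil-like cells. The genes most like Ccr2 were Casp8, AI504432 and Nfatc2 (r from 0.917 to 0.931).

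Ccr1 was a receptor of myeloid cells. Neutrophil-like cells were at 998, 624, 520 and 801 CPM, monocyte-like cells at 353, 328, 319 and 395 CPM and macrophage-like cells at 225, 182, 220 and 229 CPM. This order held in 4 of 4 libraries. The folds over the other classes were 37.1 in neutrophil-like cells (adjusted p = 1.49e-19, edgeR) and 7.35 in macrophage-like cells (adjusted p = 2.17e-14), and the 4 remaining classes were called lower. Neutrophil-like cells held 43.2% to 53.9% and macrophage-like cells 26.6% to 36.9% of its UMIs. Osm, which encodes the cytokine oncostatin M, was the gene most like Ccr1 (r = 0.988), followed by Cyp4f18 and Dok3.

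Ccl3 and its receptor Ccr1 were also counted together in neutrophil-like cells. Of the cells with Ccl3, thinned to 1000 UMIs, 56.7%, 54.1%, 44.4% and 51.6% held Ccr1, against 62.4%, 50.3%, 38.2% and 52.3% of those without. The share was lower among Ccl3-positive cells in 2 libraries and higher in the other 2.

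Cancer-like cells were examined for all 9 genes because they are the injected cells. Their levels ran from 0.452 CPM for Ccr2 in OE-MLKL 1 to 47.4 CPM for Ccl3 in OE-Vector 1. Each level was a small part of the level in free RNA of the same library, from 0.0334 to 0.132 of it with a median of 0.0795. Markers of macrophages, neutrophils and T cells were set beside them: C1qa, C1qb, C1qc, Mrc1, S100a8, S100a9, Csf3r, Cd3e, Cd3d and Trbc2 were at 0.0461 to 0.127 of free RNA, with a median of 0.0754. Cells entered the cancer-like class by raised cancer markers or, where they met no gate, by detected cancer markers. Only the latter had a cap on the UMIs of Ptprc, Laptm5 and Coro1a. Cells that also met a macrophage, neutrophil or T cell gate were left out, so these marker values were held low by the choice of cells. In OE-Vector 1 the 9 genes ran from 0.0647 to 0.113 and the markers from 0.0621 to 0.0884, with 6 of the 9 genes above every marker. The genes and the markers ran from 0.0334 to 0.0778 and 0.0461 to 0.0965 in OE-MLKL 1, from 0.0479 to 0.0924 and 0.0548 to 0.127 in OE-MLKL 2, and from 0.0769 to 0.132 and 0.0680 to 0.120 in OE-MLKL 3. Ccl2 was at 9.34, 4.90, 5.39 and 7.57 CPM, or 0.103, 0.0771, 0.0658 and 0.107 of free RNA. Ccl5 was at 32.2, 5.07, 8.01 and 32.4 CPM, or 0.104, 0.0598, 0.0727 and 0.131 of free RNA. Cancer-like cells held 8.76%, 7.84%, 8.004% and 9.20% of the Ccl2 UMIs. The part of free RNA in these levels was not tested.

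**Figure D3:**
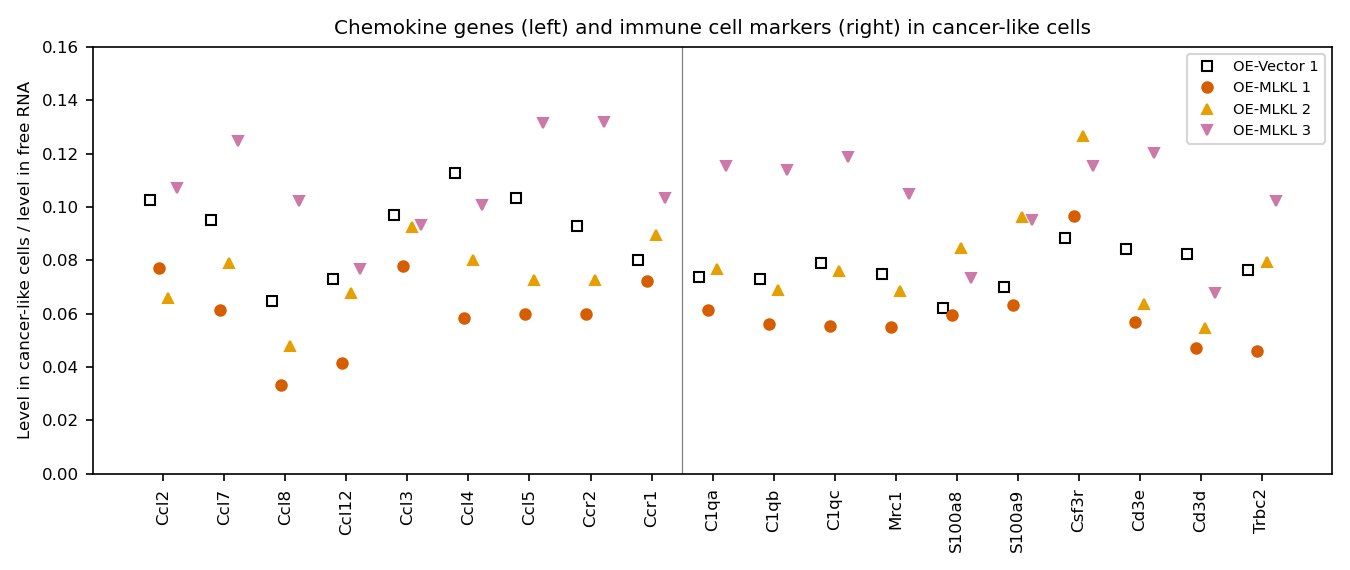
Level in cancer-like cells divided by the level in free RNA of the same library (vertical axis, a ratio), for the 9 genes (left) and 10 markers of macrophages, neutrophils and T cells (right), with 1 point per library. Both sets lie between 0.0334 and 0.132.

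The second question was whether the genes differed between OE-MLKL and OE-Vector within a class. No gene of the 9 was called in any of the 6 classes or over all cells by edgeR at an adjusted p of 0.05. Within classes, the 3 smallest unadjusted p were those of Ccl5 in CD4 T cell-like cells, higher in the OE-MLKL libraries, and of Ccl3 and Ccl4 in neutrophil-like cells, lower in them. Almost no gene at all was called: 0.241% of 8292 genes in CD4 T cell-like cells, and 0% in CD8 T cell-like, macrophage-like, neutrophil-like, fibroblast-like and cancer-like cells and over all cells. The fit rests on 2 residual degrees of freedom, both from the OE-MLKL libraries, so the lone OE-Vector library is assumed to vary as they do. For a single value, 0.25 is the smallest p that an exact permutation of 1 against 3 libraries allows.

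**Figure D4:**
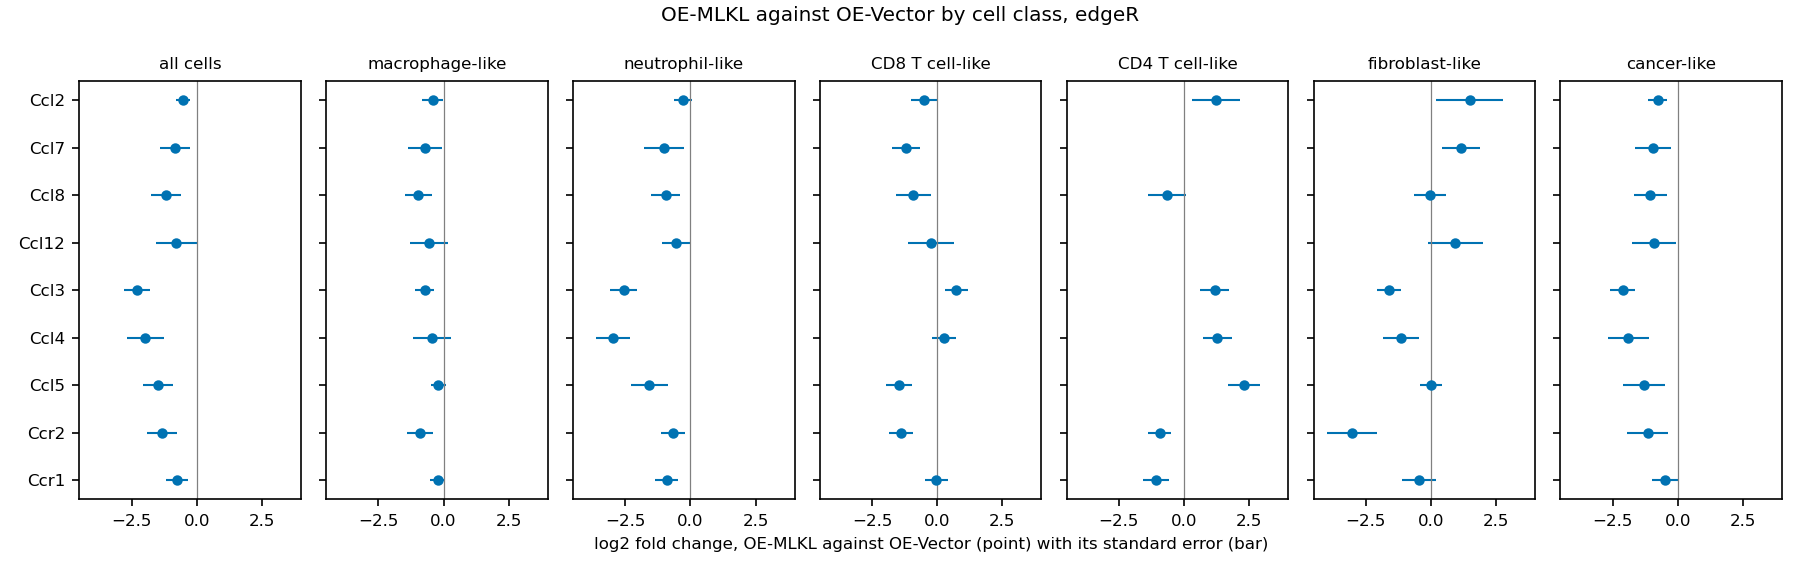
log2 fold change of each gene, OE-MLKL against OE-Vector (point), with its standard error (bar), over all cells and in 6 cell classes, from edgeR. Points left of the line at 0 are lower in the OE-MLKL libraries, as Ccl3 and Ccl4 are in neutrophil-like cells, and Ccl5 lies right of it in CD4 T cell-like and left of it in CD8 T cell-like cells.

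Over all cells, all 9 genes had a log2 fold change below 0, with a median of -1.18 beside 0.03 for all 19186 genes tested. Ccl3 was at 416 CPM in OE-Vector 1 and at 47.7, 78.2 and 154 CPM in the OE-MLKL libraries (log2 -2.295, SE 0.49, adjusted p = 0.813, edgeR). Ccl2 was at 66.7 against 47.4, 49.1 and 49.8 CPM (log2 -0.53, SE 0.26, adjusted p = 0.966). The 3 genes Ccl3, Ccl4 and Ccl5 had an unadjusted p under 0.05, as did 4.73% of all genes. DESeq2 called Ccl3, with 0.714% of the genes it gave an adjusted p, and limma-voom called none. In sums over all cells, fewer cells of a class and less RNA per cell cannot be told apart. Cancer-like cells were fewest in OE-Vector 1, where they held 82509269 of 131890879 UMIs. In OE-MLKL 1, 2 and 3 they held 110540113 of 146053058, 112539985 of 154315995 and 84246809 of 139301219 UMIs. The part of these in the differences was not tested. In the T cell-like cells with neither or both of the CD4 and CD8 markers, tested after the values were seen, 0 of 6 genes were called by edgeR, DESeq2 or limma-voom, where edgeR called 0.414% of 7005 genes. Ccr2 alone had an unadjusted p under 0.05 with edgeR, at 148 CPM in OE-Vector 1 against 46.0, 43.5 and 62.8 CPM (log2 -1.58, SE 0.49, adjusted p = 0.196, edgeR), beside 4.88% of all genes.

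In macrophage-like cells, all 9 log2 fold changes were again below 0, with a median of -0.56 beside 0.05 for all genes, and all 9 unadjusted p were above 0.05, where 5.15% of all genes were below. Ccl8 was highest in OE-Vector 1 (log2 -0.97, SE 0.53, adjusted p = 0.92, edgeR), as were Ccl7 (-0.70, SE 0.66), Ccl3 (-0.72, SE 0.37) and Ccr2 (-0.90, SE 0.49). For Ccl2, Ccl12, Ccl4, Ccl5 and Ccr1 the OE-Vector library lay among the OE-MLKL libraries. OE-MLKL 1 had the lowest level of 8 of the 9 genes, all except Ccl5. DESeq2 and limma-voom called none. The summed level of the 7 monocyte markers in these cells was 690, 1934, 1979 and 802 CPM and that of the 11 macrophage markers 31510, 37750, 35530 and 36050 CPM, both lowest in OE-Vector 1. Their part in the differences was not tested. The monocyte panel includes F13a1, itself among the 10 leading genes of the macrophage-like class, so its sum does not measure monocytes alone.

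In neutrophil-like cells Ccl3 was at 2959 CPM in OE-Vector 1 and at 388, 575 and 883 CPM in the OE-MLKL libraries, and Ccl4 at 2814 against 239, 326 and 748 CPM. OE-Vector 1 lay above every OE-MLKL library for both. The log2 fold change of Ccl3 was -2.555 (SE 0.52, adjusted p = 0.586, edgeR) and that of Ccl4 -2.97 (SE 0.65, adjusted p = 0.586). DESeq2 called both, with 0.708% of the genes it gave an adjusted p, and limma-voom called none of the 9. Among all genes tested in this class by edgeR, 8.44% had an unadjusted p under 0.05. After thinning to 500 UMIs, 35.6% of neutrophil-like cells of OE-Vector 1 held Ccl3 against 9.99%, 13.7% and 20.4% in OE-MLKL 1, 2 and 3, and 26.0% held Ccl4 against 5.76%, 6.92% and 15.4%. In fibroblast-like cells the shares were at most 3.19% for Ccl3 and 4.91% for Ccl4. Before thinning their median depth was 7066.5 to 16448.5 UMIs, against 762.5 to 1449 in neutrophil-like cells. Their shares therefore do not give the free RNA background of neutrophil-like cells.

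The summed level of the 7 monocyte markers in neutrophil-like cells was 598 CPM in OE-Vector 1 and 6914, 8385 and 3060 CPM in the others, and Ccl3 in free RNA was at 489 against 77.8, 111 and 219 CPM. OE-Vector 1 thus lay apart in both, and their part in the difference was not tested. The monocyte panel includes Chil3, itself among the 10 leading genes of the neutrophil-like class, so that sum does not measure monocytes alone. OE-Vector 1 lay within the OE-MLKL libraries in the median depth of neutrophil-like cells, at 1224 UMIs against 762.5, 792 and 1449. The same held for the sum of the 11 neutrophil markers, at 76920 against 72490, 83500 and 80760 CPM. All 7 and all 11 markers were detected in every library. Ccr1 in the same cells was at 998 against 624, 520 and 801 CPM (log2 -0.92, SE 0.42, adjusted p = 0.603, edgeR).

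**Figure D5:**
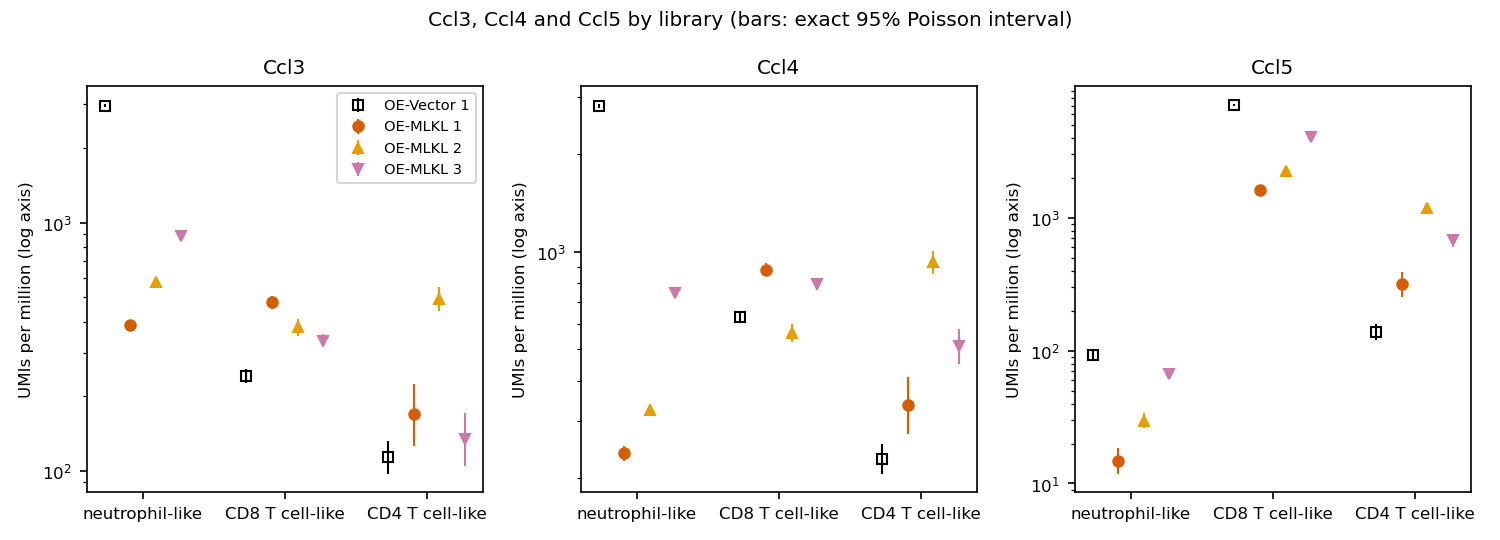
Level of Ccl3, Ccl4 and Ccl5 (vertical axis, CPM, log scale) in neutrophil-like, CD8 T cell-like and CD4 T cell-like cells, with 1 point per library and exact 95% Poisson intervals for counting error. OE-Vector 1 is the highest point for Ccl3 and Ccl4 in neutrophil-like cells, and the lowest for Ccl3, Ccl4 and Ccl5 in CD4 T cell-like cells.

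In CD8 T cell-like cells Ccl3 was lowest in OE-Vector 1 (log2 0.74, SE 0.44, adjusted p = 0.998, edgeR) and Ccl4 lay within the OE-MLKL libraries (0.25, SE 0.45). Ccl5 was highest in OE-Vector 1, at 7043 against 1613, 2232 and 4061 CPM (log2 -1.46, SE 0.51, adjusted p = 0.987). Ccr2 was highest there too, at 47.3 against 7.70, 16.7 and 30.0 CPM (log2 -1.40, SE 0.45, adjusted p = 0.98). With Ccl7 these were 3 of 9 genes at an unadjusted p under 0.05, beside 4.2% of all genes, and neither DESeq2 nor limma-voom called any.

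CD4 T cell-like cells went the other way in Ccl5. The 272, 78, 171 and 144 cells were at 138 CPM in OE-Vector 1 and at 316.5, 1176 and 679 CPM in OE-MLKL 1, 2 and 3, from 211, 93, 762 and 332 UMIs. The log2 fold change was 2.30 (SE 0.62, adjusted p = 0.127, edgeR). After thinning, 6.25% of these cells held Ccl5 in OE-Vector 1 and 12.8%, 29.2% and 18.1% in the others, all above the neutrophil-like share of the same library. Against free RNA their Ccl5 was at 0.4425 times its level in OE-Vector 1 and at 3.73, 10.7 and 2.75 times in the others, and the part of free RNA in the difference was not tested. Ccl4 was at 230 against 337, 927 and 511 CPM (log2 1.28, SE 0.56, adjusted p = 0.838, and -0.048 with doublet-like cells kept) and Ccl3 at 114 against 170, 492 and 135 CPM (1.17, SE 0.56, adjusted p = 0.946). Of the 7 genes that could be tested in this class, all except Ccl7 and Ccl12, 5 had an unadjusted p under 0.05, beside 4.84% of all genes. The other two were receptors and went the opposite way, with OE-Vector 1 above every OE-MLKL library. Ccr1 was at 42.4 against 17.0, 15.4 and 32.7 CPM (log2 -1.08, SE 0.505, adjusted p = 0.946) and Ccr2 at 202 against 74.9, 111 and 155 CPM (log2 -0.94, SE 0.45, adjusted p = 0.946). Ccr1 in these cells lay below free RNA, which was at 129, 65.9, 68.6 and 132 CPM. Neither DESeq2 nor limma-voom called any of the 7 genes.

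The difference between CD4 and CD8 T cell-like cells was fitted itself, in 1 fit of both classes with library as a block. That fit was added because these values had been seen and has 1 OE-Vector library, so its p is no independent evidence and cannot tell the group from that tumour. The log2 fold change of Ccl5 was higher by 3.66 in CD4 T cell-like cells (SE 0.45, adjusted p = 8.69e-03, edgeR), and 0.0302% of the 9933 genes tested were called. CD8 T cell-like cells were above CD4 T cell-like cells in Ccl5 in 4 of 4 libraries, with the levels furthest apart in OE-Vector 1. The same fit for neutrophil-like against T cell-like cells called none of the 9 genes, though some calls were gained under other settings. It gave a higher log2 fold change in CD4 T cell-like cells for Ccl4 (by 4.345, adjusted p = 0.0521), Ccl5 (by 3.98, adjusted p = 0.0585) and Ccl3 (by 3.63, adjusted p = 0.125), where 0.0267% of all genes were called. Against CD8 T cell-like cells the differences were 3.36 for Ccl4 (adjusted p = 0.251) and 3.33 for Ccl3 (adjusted p = 0.244), and 0% of all genes were called.

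Cytotoxic genes of the T cell-like classes also differed in level between libraries. Gzma encodes a granule protease and was also a marker of the NK cell gate. It was at 5300 CPM in CD8 T cell-like cells of OE-Vector 1 and at 335, 814 and 1750 CPM in the OE-MLKL libraries. In CD4 T cell-like cells it was at 403 against 6.81, 15.4 and 10.2 CPM, so that it stood highest where Ccl5 stood lowest. Nkg7, another cytotoxic gene, was at 633 against 558, 1136 and 889 CPM in CD4 T cell-like cells. Gzmb, a further granule protease, was at 362 against 78.3, 332 and 157 CPM there, again highest in OE-Vector 1. Of the markers that split the T cell-like cells, Foxp3, the factor of regulatory T cells, was at 103 against 119, 119 and 194 CPM. Cd4 was at 316.5 against 374, 464 and 644 CPM, and both were lowest in OE-Vector 1. Cd40lg, which marks activated helper T cells, was at 71.8 against 27.2, 29.3 and 26.6 CPM, highest in OE-Vector 1, and Cd8a and Cd8b1 were at 0 there by the gate. The part of these values in the difference was not tested.

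In fibroblast-like cells the 3 OE-MLKL libraries lay far apart in Ccl2. The OE-Vector library lay within the OE-MLKL libraries (log2 1.49, SE 1.28, adjusted p = 0.9996, edgeR), and without OE-MLKL 1 the value was -0.63. Ccl7 was lowest in OE-Vector 1 (log2 1.155, SE 0.71), at 90.6 against 337, 103 and 133 CPM, with OE-MLKL 1 far above the others. The OE-Vector 1 level lay below free RNA, where Ccl7 was at 109 CPM. The summed level of the 9 fibroblast markers in these cells was 18940, 13080, 14900 and 23460 CPM, lowest in OE-MLKL 1, and that of the 7 monocyte markers 764, 1160, 808 and 783 CPM, highest in OE-MLKL 1, where Ms4a4c was at 0. The 11 macrophage markers summed to 1337, 1902, 1642 and 1892 CPM. The part of these in the Ccl2 and Ccl7 levels was not tested. The share of fibroblast-like cells with Ccl2 after thinning was 27.8% in OE-MLKL 1 and 13.8%, 6.17% and 6.135% in the other 3, OE-Vector 1 first. Ccl3 and Ccr2 had an unadjusted p under 0.05, beside 4.27% of all genes, and their levels were 0.127 to 0.266 and 0 to 0.633 of free RNA.

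Cancer-like cells had all 9 log2 fold changes below 0, with a median of -1.05 beside 0.03 for all genes. Ccl3 was at 47.4 against 6.05, 10.3 and 20.45 CPM (log2 -2.11, SE 0.49, adjusted p = 0.955, edgeR), and DESeq2 called it with 0.64% of the genes it gave an adjusted p. It was the 1 gene of the 9 with an unadjusted p under 0.05, beside 4.46% of all genes. Its ratio to free RNA was 0.0971 in OE-Vector 1 and 0.0778, 0.0924 and 0.0935 in the OE-MLKL libraries. Neither Ccl2 (9.34 against 4.90, 5.39 and 7.57 CPM) nor Ccl5 (32.2 against 5.07, 8.01 and 32.4 CPM) was higher in the OE-MLKL libraries as a group.

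The monocyte-like class was too small for the test. Its Ccr2 level was 1145 CPM in OE-Vector 1 (exact 95% Poisson interval 1058 to 1237) and 192 (144 to 250), 806 (707 to 915) and 694 (580 to 825) CPM in OE-MLKL 1, 2 and 3. OE-Vector 1 was the highest, and OE-MLKL 1 lay apart from the other 3 libraries. Ccr1 in the same cells ran from 319 to 395 CPM, with overlapping intervals. The summed level of the 11 neutrophil markers in these cells was 2045, 9504, 4905 and 7986 CPM, that of the 11 macrophage markers 7602, 12500, 12000 and 8306 CPM, and that of the 7 monocyte markers 7924, 14230, 14040 and 10320 CPM. Every marker was detected in each library, all 3 sums were lowest in OE-Vector 1 and highest in OE-MLKL 1, and their part in the Ccr2 levels was not tested.

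Of 30 other chemokine and chemokine receptor genes, most of them CC with a few of the XC and CX3C families, 20 were tested across classes and 17 genes of receptor signalling were. Macrophage-like cells had 7 of the 20 and 13 of the 17 called higher, where 28.8% of all genes were, and neutrophil-like cells 4 and 15, where 34% were. In cancer-like cells 3 of the 20 and 3 of the 17 were called higher (34.1% of all genes), and 11 and 13 lower (31.8%). Within classes 0 genes of either list were called between OE-MLKL and OE-Vector by edgeR, and DESeq2 called at most 1 of a list. The most with an unadjusted p under 0.05 were 6 of 14 tested of the first list, in CD8 T cell-like cells (4.2% of all genes), and 3 of 17 of the second, in neutrophil-like cells (8.44%).

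Ccl6 and Ccl9, further ligands of Ccr1, were higher in macrophage-like cells by a log2 of 3.67 (adjusted p = 2.19e-14, edgeR) and 4.15 (adjusted p = 2.28e-12) and in neutrophil-like cells by 4.775 (adjusted p = 5.36e-17) and 0.91 (adjusted p = 7.78e-03). In macrophage-like cells Ccl9 was at 391 against 260, 260 and 207 CPM (log2 -0.81, SE 0.30, adjusted p = 0.92). Ackr2, a decoy receptor for inflammatory CC chemokines, reached 0.19 CPM over all cells of OE-Vector 1 and could be tested in no class.

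Genes of these lists with the smallest p in each class were as follows. In macrophage-like cells they included Ccl6, Rgs1, Arrb2 and Gng2, and in neutrophil-like cells they were Ccrl2, Arrb2, Ccl6, Rgs2 and Pik3cg, all higher. CD8 T cell-like cells were led by Xcl1 (log2 6.36), the ligand of Xcr1 on cross-presenting dendritic cells, with Rac2, Ccr9, Prex1 and Ccl1. CD4 T cell-like cells were led by Rac2, Ccl1, Ccr4 (log2 7.76), Ccr9 and Gng2, all higher. In cancer-like cells Prex1, Gng2, Rac2, Arrb2 and Pik3cg were lower, and in fibroblast-like cells Rac2, Arrb2, Gng2, Grk2 and Prex1.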

How the data were processed

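Tumour cell suspensions were profiled by droplet single-cell RNA-seq. The deposited unfiltered matrices hold UMI counts per gene and barcode, which the authors made with Cell Ranger on mm10. The submitters' processing notes name version 2.1.1 and the matrix headers 7.1.0, the study's methods name yet another, and whether intronic reads were counted is not given in the sources used here. Barcodes with at least 500 UMIs, more than 200 genes, under 10% mitochondrial and at most 5% haemoglobin UMIs were kept as cells. The filter stated in the study left 17416, 20738, 26277 and 27961 barcodes. Total counts per library were 150591289 to 169978362, and exact intervals cover counting error only.

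Each cell was assigned to a class when at least 3 of its markers exceeded the free RNA of its library at a Poisson tail under 0.01. Below 2000 UMIs 2 markers were enough, except for monocytes. Cells that met the gates of related classes went to the class with the largest part of its markers raised. Those that met the T cell and NK cell gates alone were counted as T cell-like. The scoring was set after the data were seen. Cells with markers of unrelated classes were left out as doublet-like, and no doublet caller was run. Cancer was itself among the classes gated by raised markers. Cells of no such class were also cancer-like where at least 3 cancer markers were detected and their UMIs reached 0.5 of the free RNA expectation. In those cells the UMIs of Ptprc, Laptm5 and Coro1a had to be at most 0.5 of their expectation. Cells gated by mesothelial markers were counted as fibroblast-like. T cell-like cells were split by any UMI of CD4 or CD8 markers. Counts were summed per library and class, for 6 classes with at least 50 cells in every library, and tested with edgeR 4.0.16 (TMM, filterByExpr, quasi-likelihood, Benjamini-Hochberg adjustment over all genes, threshold 0.05). DESeq2 1.42.0 and limma 3.58.1 were alternatives. T cell-like cells with neither or both kinds of marker also had at least 50 cells, and their tests as a 7th class, like the joint fits of 2 classes, were added after the values were seen. The tests were checked on simulated counts. Nothing states whether the tumours of a group came from separate batches, so p-values measure the spread between these libraries. Named genes were the 9 members, at most 5 genes per comparison by smallest p from 2 chemokine lists, Ackr2, Ccl6 and Ccl9, the 3 genes most correlated with each member, and Mlkl. One gene that the rule names is not reported here. T cell and other markers printed beside a result were chosen after their values were seen. The members and lists were chosen with earlier results of these data known. Promoter windows came from RefSeq (5 of 9 members matched) and gene positions from GENCODE vM21.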

Additional observations from a re-analysis of the deposited data

Results flagged for a closer look

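Among pairs of classes in which a gene was called higher than in the other classes, the OE-Vector library lay on opposite sides of all 3 OE-MLKL libraries for 4 genes. Among the 6 fitted classes, those in which a gene was not called higher gave further pairs for these genes and added Ccl2. Outside that fit, Ccr2 in cDC1-like cells was at 50.3 CPM in OE-Vector 1 and from 61.5 to 211 CPM in the OE-MLKL libraries. That was opposite to Ccr2 in macrophage-like cells. Called lower in both T cell-like classes among 6 classes, Ccl2 was at 7.18 CPM in OE-Vector 1 against 27.2, 10.8 and 20.4 CPM in CD4 T cell-like cells and at 10.8 against 6.34, 9.23 and 7.51 CPM in CD8 T cell-like cells, and the joint fit did not call the difference (log2 1.71, adjusted p = 0.65, edgeR). These Ccl2 levels lay below free RNA, at 90.9, 63.6, 81.8 and 70.8 CPM. They came from 36 UMIs in all in CD4 T cell-like and 91 in CD8 T cell-like cells. For Ccl5 the log2 fold change was 3.764 higher in CD4 T cell-like than in CD8 T cell-like cells when each class was fitted alone, and the difference was called in the joint fit (adjusted p = 8.69e-03, edgeR). For Ccl4 the difference between CD4 T cell-like and neutrophil-like cells was 4.246 (joint fit adjusted p = 0.0521, edgeR). For Ccl3 the difference between CD8 T cell-like and neutrophil-like cells was 3.291 (joint fit adjusted p = 0.244, edgeR). For Ccl7 the log2 fold change was 1.155 in fibroblast-like and -0.70 in macrophage-like cells, a difference of 1.855 that was not tested. Ccl7 in fibroblast-like cells of OE-Vector 1 lay below free RNA. Each of these differences rests on 1 OE-Vector library, and the joint fits were added after these directions were seen.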

How the results depend on the processing

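No paired analysis was possible because OE-MLKL and OE-Vector share only replicate number 1 among the libraries analysed. The 59 recounts of members called higher in a class, 6 of them with a 7th class added after the values were seen, all stayed within 1.5 times the reported count. Of 316 recomputed log2 fold changes between OE-MLKL and OE-Vector, 297 kept their direction and their side of the threshold, 17 became called and 2 reversed. The reversed values were Ccl4 in CD4 T cell-like cells with mixed cells kept (-0.048) and Ccl2 in fibroblast-like cells without OE-MLKL replicate 1, from -0.63 to 1.97 over the libraries left out. The reported count of 0 members called rose with DESeq2 to 1 over all cells (Ccl3), 1 in cancer-like cells (Ccl3) and 2 in neutrophil-like cells (Ccl3 and Ccl4), where it called 0.714%, 0.64% and 0.708% of all genes. With no low-count filter it was 1 in CD4 T cell-like cells (Ccl5), 1 in CD8 T cell-like cells (Ccr2) and 2 in fibroblast-like cells (Ccr2 and Ccl3), beside 0.158%, 0.6% and 0.867% of all genes. Leaving out 1 OE-MLKL library gave 0 to 4 members in CD4 T cell-like cells, 0 to 5 in CD8 T cell-like cells, 0 to 4 over all cells, 0 to 3 in cancer-like cells and 0 to 2 in neutrophil-like cells. The highest counts came without OE-MLKL replicate 3, where the share of all genes called also rose, to 2.65%, 6.51%, 2.96%, 2.15% and 3.67% in the same order, and 2 were called in cancer-like cells without OE-MLKL replicate 1 (0.675% of all genes). The cause was not tested. Such fits have 1 residual degree of freedom, and OE-Vector 1 could not be left out. Of 36 recomputed differences between classes, 24 kept their side of the threshold, among them all 6 of Ccl5 between CD4 and CD8 T cell-like cells, and 12 became called. In the 6 fits of CD4 against CD8 T cell-like cells, 0.0201% to 0.962% of all genes were called. Between CD4 T cell-like and neutrophil-like cells, Ccl4 and Ccl5 were called with RLE scaling (adjusted p = 0.0154 and 0.0208, edgeR, 0.0889% of all genes) and without any 1 OE-MLKL library, and Ccl3 without OE-MLKL replicate 1 or 3. In that comparison 0.808%, 0.0266% and 4.49% of all genes were called without OE-MLKL replicate 1, 2 and 3. Between CD8 T cell-like and neutrophil-like cells, Ccl3 and Ccl4 were called without OE-MLKL replicate 3, where 9.1% of all genes were. Of the recomputed differences between groups in the share of cells with a UMI, 22 of 80 moved by more than 1 SD between libraries, as did 12 of 60 shares of UMIs held by a class. The stricter gate left CD4 T cell-like cells too few to test.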
